A study of Mus musculus with 9 samples.

Results

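Hepatokines are proteins that the liver secretes into the blood and that act on other organs. The transcripts of 9 genes for hepatokines and metabolic stress hormones were followed in the livers of db/db mice: Fgf21, Gdf15, Inhbe, Igfbp1, Fst, Angptl4, Angptl8, Ahsg and Fetub. They were taken by symbol from the deposited gene table, in which they are 9 of 28517 genes, and all 9 passed the filter on low counts. All mice in the study carry the db/db genotype, in which the leptin receptor does not work, and they become obese and diabetic. There was no lean group among the samples. For 12 weeks one group received PBS as vehicle, one FGF19WT and one FGF19ΔKLB, with 3 liver RNA-seq libraries from each. FGF19 is the human counterpart of mouse FGF15, a hormone of the intestine that reaches the liver and acts through the receptor FGFR4 with the co-receptor β-klotho. The sequence change in FGF19ΔKLB is not given in the labels. The deposited table uses the code F19_HBS for this group and no label says what HBS stands for, so the group is called here by the titles of its samples. The doses, route, age and sex are not given in the sources used here, nor whether the 3 libraries of a group come from separate animals. The p-values therefore measure the spread between these samples, which may be technical.

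The liver makes several of these hormones in response to nutrient state. Fgf21, Gdf15 and Inhbe are known to be switched on when cells run the integrated stress response, in which the kinase signal on eIF2α raises the transcription factor ATF4. Fgf21 and Angptl4 also follow fasting through PPARα, Igfbp1 is held down by insulin through FOXO1, and Angptl8 is raised by feeding and insulin. Ahsg and Fetub encode fetuin-A and fetuin-B, which hepatocytes secrete at high levels.

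Count totals were 65.1 to 73.3 M per library. Low counts piled up at multiples of 4, so 1 read pair may stand for about 4 counts and the totals for about 16.3 to 18.3 M read pairs. Levels are given as CPM, counts scaled to a common library total with TMM factors, and as FPKM from the authors where genes are compared with each other. Of 10 hepatocyte markers, 9 were in the table under their listed symbol and all 9 were tested, with albumin, Alb, at 78702 to 248925 CPM. FGF19WT libraries 2 and 3 stood far from the rest on the first principal component, which held 48.9% of the variance. Their scores were 129.8 and 169.9, while FGF19WT library 1 lay at −41 and the other 6 libraries between −64 and −7.9. The differences of the 9 genes between FGF19WT and vehicle are therefore given with and without these libraries. Without them FGF19WT holds 1 library, so each such interval and p takes its spread from the vehicle and FGF19ΔKLB groups, assumes that the lone library varies like them, and says nothing of the spread within FGF19WT.

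In vehicle livers the genes spanned a wide range of transcript levels per length. Ahsg stood at 1543 ± 124 FPKM (SD, n = 3) and Fetub at 247 ± 27.3 FPKM. Angptl8 at 44.1 ± 24, Fgf21 at 33.8 ± 34.0, Angptl4 at 29.98 ± 2.72, Inhbe at 27.1 ± 10.9 and Igfbp1 at 22.5 ± 1.84 FPKM came next. Over the vehicle libraries Fgf21 and Inhbe overlapped with each other and with these other genes, and Angptl8 overlapped with Angptl4, while Angptl8 and Angptl4 were above Igfbp1 in every library. Gdf15 followed at 5.25 ± 1.23 and Fst at 0.675 ± 0.469 FPKM. In FGF19WT libraries 2 and 3 the order was another one, with Igfbp1 at 1919 and 1099 FPKM, second to Ahsg at 3096 and 2862 FPKM.

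With FGF19WT, Igfbp1 and Ahsg stood above vehicle in every library and Angptl4 stood below it. Fst was high in FGF19WT libraries 2 and 3 and at the vehicle level in library 1. Tested with edgeR over all 9 libraries, 0 of the 9 genes passed an adjusted p of 0.05 against vehicle, where 20 of 18142 genes did (0.11%). The count was also 0 of 9 with edgeR over the 6 libraries of these groups, where 1 gene passed (0.00574%). At an unadjusted p under 0.05 in edgeR there were 5 of 9, Igfbp1, Fst, Ahsg and Angptl8 higher and Angptl4 lower, beside 18.8% of all genes. DESeq2, a second count test, called 4 of 9 at its adjusted p, the same genes without Angptl8, beside 9.61% of all genes. All 3 FGF19WT libraries were above all 3 vehicle libraries in 2 of 9 genes, against 11% of all genes, and below them in 1 of 9, against 11.6%.

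With FGF19ΔKLB, the genes for Igfbp1, Angptl8, Ahsg and Fetub stood above vehicle in every library in CPM and Angptl4 again stood below it. For Fetub this did not hold in FPKM. The edgeR test over 9 libraries called 0 of 9 against vehicle, where 2 of 18142 genes were called (0.011%). Over the 6 libraries of these groups, edgeR called 0 of 9, where 292 genes were called (1.68%). At an unadjusted p under 0.05 in edgeR over 9 libraries there were 3 of 9, Angptl8 and Ahsg higher and Angptl4 lower, beside 8.35% of all genes. DESeq2 called the same 3 of 9 at its adjusted p, beside 2.04% of all genes. In CPM all 3 FGF19ΔKLB libraries lay above all 3 vehicle libraries in 4 of 9 genes, against 12.4% of all genes. They lay below them in 1 of 9, against 12.2%. Both comparisons use the same vehicle libraries.

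Between the FGF19 forms, Igfbp1 and Fst stood lower with FGF19ΔKLB than with FGF19WT on average, with FGF19WT libraries 2 and 3 high and library 1 not. In edgeR over 9 libraries 0 of 9 were called, as were 0 of all genes (0%), and over 6 libraries 0 of 9 beside 1 gene in all (0.00584%). At an unadjusted p under 0.05 in edgeR there were 2 of 9, Igfbp1 and Fst, beside 12.5% of all genes. DESeq2 called these same 2 of 9, beside 4.6% of all genes. No member separated the groups completely, where 7.15% of all genes were higher in every FGF19ΔKLB library and 6.39% were lower. With 9 members chosen with earlier results known, these shares describe the list and are no test of it.

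**Figure D1:**
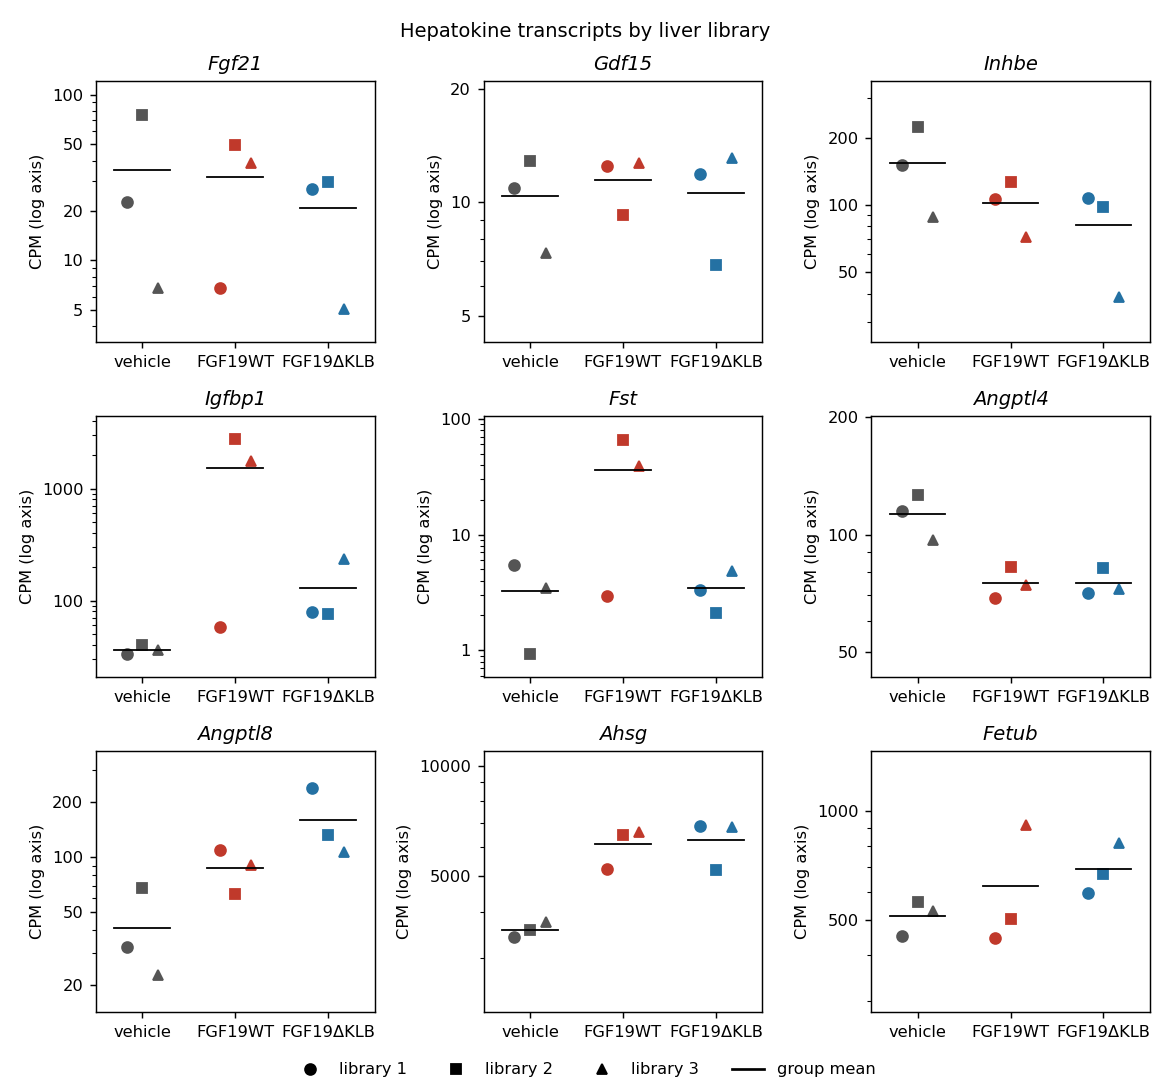
CPM of the 9 hepatokine genes on log axes, with 1 point per liver library, the library number as the symbol and the group mean as a line. Igfbp1 and Fst are far above all other libraries in FGF19WT libraries 2 and 3, while Angptl4 is lower and Ahsg higher than vehicle in all 6 FGF19 libraries.

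**Figure D2:**
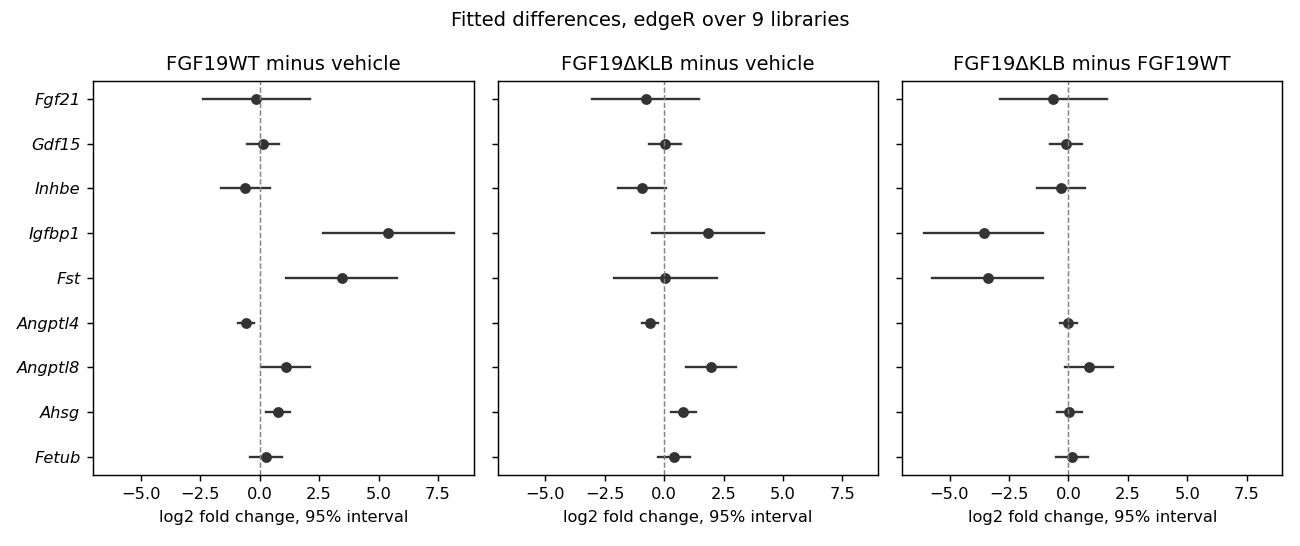
Log2 fold changes of the 9 genes with 95% intervals from edgeR over 9 libraries, in 1 panel per comparison. The intervals of Fgf21, Igfbp1 and Fst span several log2 units, those of Angptl4 under 1, and no gene passed the adjusted p threshold in any panel.

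Fgf21 encodes a hormone that signals through FGFR1 with β-klotho, the co-receptor that FGF19 also uses. The gene lies on chromosome 7 from 45613886 to 45615490 on the minus strand (GRCm38). It stood at 22.6, 75.4 and 6.78 CPM in vehicle, at 6.83, 49.96 and 38.5 CPM with FGF19WT and at 26.8, 29.8 and 5.13 CPM with FGF19ΔKLB. Each group held both low and high libraries, and all groups overlapped. The highest vehicle library was 11.1 times the lowest. Against vehicle the log2 fold change was −0.14 with FGF19WT (95% interval −2.37 to 2.1, adjusted p = 0.95 in edgeR) and −0.76 with FGF19ΔKLB (−3.01 to 1.49, adjusted p = 0.908). Both intervals leave room for differences of over 2-fold in either direction. FGF19WT library 1 alone, without libraries 2 and 3, gave −2.36 (−6.73 to 2.02). Klb, which encodes β-klotho, stood at 24.3, 29.2 and 19.8 CPM in vehicle, at 27.4, 11 and 10.01 CPM with FGF19WT and at 32.3, 19.1 and 29.8 CPM with FGF19ΔKLB, lowest in FGF19WT libraries 2 and 3. Fgfr1, which encodes the receptor of FGF21, stood at 0.784 to 2.83 CPM in all 9 libraries. Fgfr2, which encodes a related receptor, stood at 14.8, 13.6 and 15.2 CPM in vehicle, at 53.3, 3.76 and 2.82 CPM with FGF19WT and at 61.2, 51.8 and 61.6 CPM with FGF19ΔKLB. FGF19WT library 1 lay with the FGF19ΔKLB libraries for Fgfr2. In FGF19ΔKLB against vehicle its log2 fold change was 2.0, with an adjusted p of 0.646 in edgeR over 9 libraries and 0.00558 over 6. FGF19WT against vehicle gave 0.45 (adjusted p = 0.813 in edgeR). Fgfr3, another receptor gene, had the smallest p of this list for FGF19WT (log2 −0.62, adjusted p = 0.343). Of 5 tested FGF receptor and co-receptor genes 0 were called over 9 libraries against vehicle, 0 passed an unadjusted p of 0.05 and DESeq2 called 0, with no p given for Fgfr2.

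Gdf15 encodes a stress hormone that acts on the hindbrain through the receptor GFRAL, and its gene lies on chromosome 8 from 70629393 to 70632456 on the minus strand. Its levels were 10.9, 12.9 and 7.33 CPM in vehicle, 12.5, 9.25 and 12.7 CPM with FGF19WT and 11.9, 6.82 and 13.1 CPM with FGF19ΔKLB. All 9 libraries lay within a 2-fold range and the groups overlapped throughout. The log2 fold change against vehicle was 0.15 with FGF19WT (95% interval −0.52 to 0.82, adjusted p = 0.805 in edgeR) and 0.03 with FGF19ΔKLB (−0.64 to 0.7, adjusted p = 0.992). For this gene both intervals exclude a 2-fold difference in either direction. FGF19WT library 1 alone gave 0.28 (−0.68 to 1.23). The genes for the receptor, Gfral and Ret, were not analysed here.

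Inhbe encodes the βE subunit of activin E, which hepatocytes secrete and which restrains lipolysis in fat tissue. It lies on chromosome 10 from 127348857 to 127354411 on the minus strand, 1910 bases from Inhbc, the gene of the related βC subunit. Inhbe stood at 151, 224 and 88.1 CPM in vehicle, at 106, 127 and 71.6 CPM with FGF19WT and at 107, 97.9 and 38.7 CPM with FGF19ΔKLB. The group means were lower in that order but the ranges overlapped, with the lowest library of the 9 in the FGF19ΔKLB group. The log2 fold change against vehicle was −0.92 with FGF19ΔKLB (95% interval −1.95 to 0.1, adjusted p = 0.649 in edgeR) and −0.6 with FGF19WT (−1.63 to 0.42, adjusted p = 0.48). FGF19WT library 1 alone gave −0.54 (−2.29 to 1.2). Its neighbour Inhbc stood at 54.7, 35.9 and 31.2 CPM in vehicle and at 41.5, 53.6 and 40.1 CPM with FGF19ΔKLB, with overlapping groups.

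The promoters of the stress hormones were read to see which share a motif. The RefSeq windows (GRCm38.p6) hold 250 bases before and 50 after each start, and 7 of the 9 genes were matched, without Angptl4 and Fst. The composite element for ATF4 and C/EBP, spelled TGATGNAA and searched on both strands, was found in Fgf21, Angptl8 and Inhbe, and in 3.97% of all 32851 windows. The E-box CACGTG, which reads the same on both strands and is bound by bHLH factors such as ChREBP and USF, was found in Fgf21 and Gdf15 and in 7.15% of windows. The element of the Igfbp1 promoter known for its response to insulin, CAAAACA, was found in Igfbp1 and in 6.28% of windows. The forkhead core GTAAACA was found in Fetub and in 3.65% of windows. The direct repeat that PPAR binds (0.0396% of windows) and TGACGTCA, a cAMP response element (1.79%), were in none of the 7. The stretches before the start of 3 genes and a short piece of Inhbe are shown 5′ to 3′ on the gene's strand, with the ATF4 and C/EBP element, the E-box of Fgf21 and the insulin element of Igfbp1 in capitals. They lie at chr7:45615491-45615740 (minus), chr9:21835260-21835509 (plus), chr11:7197537-7197781 (plus) and chr10:127352011-127352040 (minus).
Fgf21: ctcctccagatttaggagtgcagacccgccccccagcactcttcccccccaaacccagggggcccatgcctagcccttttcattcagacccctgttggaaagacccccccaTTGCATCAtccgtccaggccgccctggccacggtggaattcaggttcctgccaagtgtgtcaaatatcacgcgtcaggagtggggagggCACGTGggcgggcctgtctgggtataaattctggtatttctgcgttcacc
Angptl8: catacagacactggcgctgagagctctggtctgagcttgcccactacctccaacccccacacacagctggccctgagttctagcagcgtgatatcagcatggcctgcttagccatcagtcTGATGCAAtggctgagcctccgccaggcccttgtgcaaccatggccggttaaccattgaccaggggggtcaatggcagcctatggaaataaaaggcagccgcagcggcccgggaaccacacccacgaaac
Igfbp1: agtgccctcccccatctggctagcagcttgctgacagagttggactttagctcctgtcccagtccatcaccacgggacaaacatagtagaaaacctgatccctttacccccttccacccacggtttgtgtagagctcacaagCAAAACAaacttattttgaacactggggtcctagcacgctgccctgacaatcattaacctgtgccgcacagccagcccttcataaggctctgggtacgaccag
Inhbe: catcctctttcTTGCATCAtgcatgtccac
Counted from the RefSeq start, the ATF4 and C/EBP element begins at −139 in Fgf21, −130 in Angptl8 and −181 in Inhbe, and the insulin element of Igfbp1 at −108. The RefSeq starts of Inhbe, Gdf15 and Fetub lie inside these genes as GENCODE annotates them, and so do the motif matches in their windows. A match shows that the letters are present, not that a factor binds there.

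The 3 hormones known to follow ATF4 were compared with other genes of the integrated stress response. Of 20 listed genes of that response, 15 stood above all 7 other libraries in both FGF19WT libraries 2 and 3, where 18.4% of all genes did, and 1 stood below, where 19% did. Fgf21, Gdf15 and Inhbe lay within the range of the other 7 libraries there. Asns, asparagine synthetase, reached 38.8 and 50.7 CPM there and 0.425 CPM in FGF19WT library 1, against a vehicle mean of 0.973 CPM. Atf4 stood at 150.5 and 174 CPM against a vehicle mean of 77.8, and Ddit3, which encodes CHOP, at 58.4 and 47.7 CPM against 10.6. Asns, Atf4 and Ddit3, like Igf1, Alb and the marker genes of fat, were named after their values were seen. For FGF19WT against vehicle 0 of the 20 were called in edgeR, 11 were higher and 1 lower at an unadjusted p under 0.05, DESeq2 called 9 higher and 0 lower, and the median log2 fold change was 1.56, beside −0.0 over all genes. The smallest p belonged to Slc7a11, the cystine transporter (adjusted p = 0.112), and Phgdh, the first enzyme of serine synthesis (adjusted p = 0.125). Slc7a11 was near the floor, at a vehicle mean of 0.0178 CPM and at 0.879, 1.51 and 0.522 CPM with FGF19WT. It was not among the 15 genes above the other 7 libraries. For FGF19ΔKLB against vehicle 0 of 20 were called, 1 was higher and 1 lower at that unadjusted p and in DESeq2, and the median was −0.17.

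**Figure D3:**
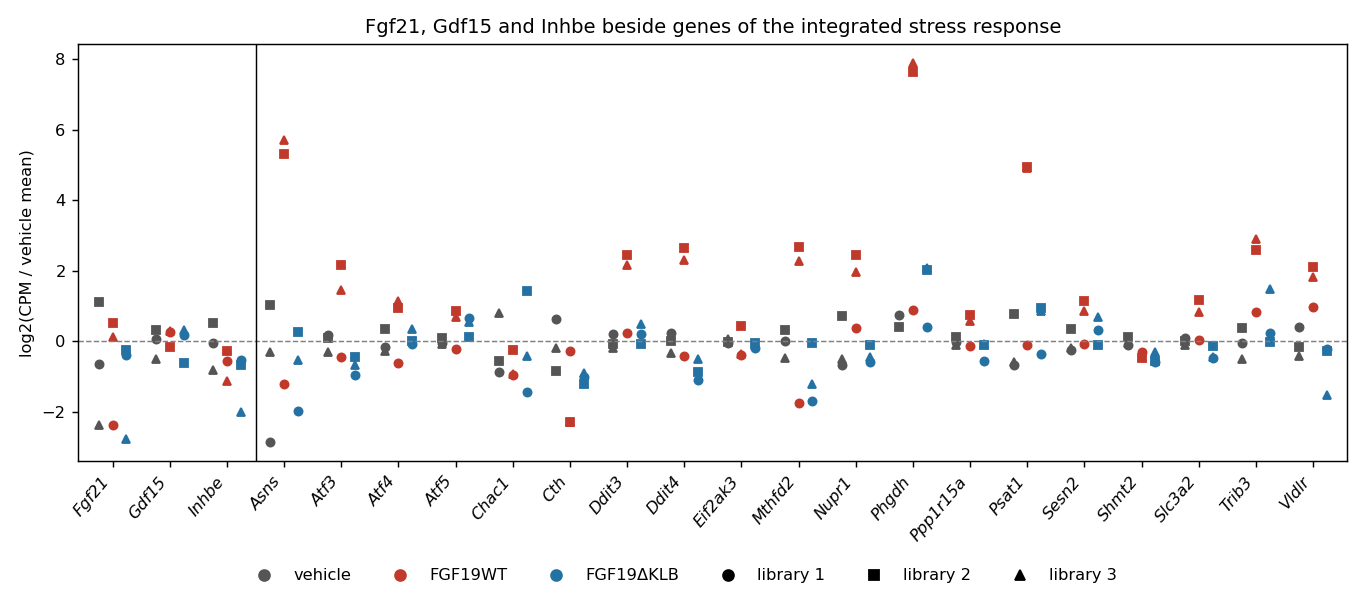
Log2 ratio of each library's CPM to the vehicle mean for Fgf21, Gdf15 and Inhbe (left of the line) and genes of the integrated stress response, coloured by group. Slc7a11, near 0 in vehicle, is not drawn, nor are libraries at 0. FGF19WT libraries 2 and 3 (red square and triangle) are the highest points for 15 of the 20 listed genes and lie among the others for the 3 hormones.

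Igfbp1 encodes IGF-binding protein 1, which hepatocytes secrete and which binds the insulin-like growth factors, and its gene lies on chromosome 11 from 7197782 to 7202546 on the plus strand. Its levels were 33.0, 39.9 and 35.9 CPM in vehicle, 57.8, 2787 and 1763 CPM with FGF19WT and 78.8, 75.3 and 235 CPM with FGF19ΔKLB. Every FGF19 library was above every vehicle library, and FGF19WT libraries 2 and 3 were above all the others by at least 7.51-fold. By that ratio Igfbp1 ranked 161 and Fst 172 among 18142 genes. Against vehicle, FGF19WT gave a mean 42.4-fold higher level (log2 fold change 5.40, SE 1.2, 95% interval 2.66 to 8.15), with an adjusted p of 0.125 in edgeR. DESeq2 gave an adjusted p of 9.86e-07 for the same difference. When FGF19WT libraries 2 and 3 were left out it was 1.59-fold (log2 0.67, −0.9 to 2.24, adjusted p = 0.912 in edgeR). Without FGF19WT library 1 it was 5.96 on the log2 scale with an adjusted p of 0.000225 in edgeR.

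With FGF19ΔKLB, Igfbp1 was 3.57-fold above vehicle (log2 1.84, SE 1.03, 95% interval −0.51 to 4.19), with an adjusted p of 0.706 in edgeR over 9 libraries. The 6 libraries of these groups gave 1.83 (0.68 to 2.98) and an adjusted p of 0.127. FGF19ΔKLB library 3 was the highest of that group, 3.12 times the lowest. Between the forms the log2 difference was −3.57 (FGF19ΔKLB minus FGF19WT, −6.08 to −1.05, adjusted p = 0.274 in edgeR). It turned to 1.16 (−0.59 to 2.91) when FGF19WT libraries 2 and 3 were left out, and was −4.13 with an adjusted p of 0.000979 in edgeR without library 1. FGF19WT library 1 at 57.8 CPM was below all FGF19ΔKLB libraries, while libraries 2 and 3 were far above them.

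Other transcripts moved with Igfbp1 in FGF19WT libraries 2 and 3. Of all genes tested, 18.4% were above the other 7 libraries in both and 19% were below. A list of 12 genes of pericentral hepatocytes, the cells nearest the outflow vein of the lobule, was higher there than in any of the other 7 libraries for all 12, and its summed level was 34202 and 30969 CPM. That sum was 5549 to 9822 CPM in vehicle, 5847 CPM in FGF19WT library 1 and 2389.6 to 4181 CPM with FGF19ΔKLB. Among 12 genes of periportal hepatocytes 11 were below, with sums of 255 and 276 CPM against 7020 to 10254 CPM in the other 7 libraries. Of 11 Kupffer cell and macrophage markers 10 were below, with sums of 90.5 and 40.9 CPM against 223 to 398 CPM, and none of these markers was at 0 in all libraries. In bulk RNA fewer cells of a type and less RNA per cell cannot be told apart. Of 10 sinusoidal endothelial markers 8 were below, with sums of 56.2 and 59.8 CPM against 84.4 to 188 CPM. The 5 pancreas markers in the table, of 8 listed, summed to 57.1 and 57.5 CPM against 6.69 to 14.2 CPM. Only 1 of them, Cela1, passed the filter on low counts, and 2 of the 5 were above the other 7 libraries. The part of these differences in the levels of Igfbp1 and Fst was not tested.

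The other IGF-binding protein genes had courses of their own. Igfbp3, the main carrier of IGF1 in blood and the next gene to Igfbp1, 3539 bases away, stood at 24.6, 28.3 and 27.4 CPM in vehicle, at 16.0, 12.3 and 9.03 CPM with FGF19WT and at 14.7, 19.9 and 12.5 CPM with FGF19ΔKLB. Both FGF19 groups lay below vehicle in every library, opposite to Igfbp1, with log2 fold changes of −1.1 (adjusted p = 0.125 in edgeR) and −0.77 (adjusted p = 0.441). Igfbp2 was high in 2 FGF19ΔKLB libraries, at 120.3 and 266 CPM, and at 21 CPM in the third, against 18.3 to 27.9 CPM in vehicle (log2 2.62, adjusted p = 0.459). Igfbp6 reached 11.6 and 28 CPM in FGF19WT libraries 2 and 3, with 0.16 to 2.36 CPM in the other 7 (log2 against vehicle 4.23, adjusted p = 0.127). Igf1, the growth factor itself, was as low as 9.62 and 8.48 CPM in FGF19WT libraries 2 and 3, with 195 to 323 CPM in the other 7. Of the 11 listed genes of the IGF axis 10 were tested and 0 were called in edgeR in any comparison. At an unadjusted p under 0.05 there were 1 higher and 2 lower with FGF19WT against vehicle (median −0.94) and 1 higher and 1 lower with FGF19ΔKLB (median 0.14). DESeq2 called 1 higher and 1 lower with FGF19WT and 1 higher with FGF19ΔKLB. Of 10 genes of FOXO1 and fasting glucose control, 0 were called against vehicle in edgeR or DESeq2, with medians of −0.35 for FGF19WT and −0.2 for FGF19ΔKLB. At an unadjusted p under 0.05 there were 0 higher and 1 lower with FGF19WT and 0 in either direction with FGF19ΔKLB. The 10 summed to 860 and 620.5 CPM in FGF19WT libraries 2 and 3, against 2047 to 3869 CPM in the other 7. In those 2 libraries 4 of the 10 were below the other 7 and 1 was above, beside 19% and 18.4% of all genes. With FGF19WT the smallest p were those of Foxo1 (log2 −0.55, adjusted p = 0.222 in edgeR) and G6pc, glucose-6-phosphatase (−1.67, adjusted p = 0.291).

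Fst encodes follistatin, a secreted protein that binds activins and blocks them, from a gene on chromosome 13 from 114452290 to 114458951 on the minus strand. Its levels were 5.45, 0.937 and 3.45 CPM in vehicle, 2.94, 66.0 and 39.1 CPM with FGF19WT and 3.29, 2.11 and 4.87 CPM with FGF19ΔKLB. FGF19WT libraries 2 and 3 were at least 7.18-fold above all the others, and FGF19WT library 1 lay within the vehicle range. The lowest library, vehicle 2, rests on 64 counts, while FGF19WT library 2 holds 5351. Against vehicle the FGF19WT mean was 11-fold higher (log2 3.46, SE 1.03, 95% interval 1.12 to 5.79, adjusted p = 0.147 in edgeR), with an adjusted p of 0.00341 in DESeq2. The difference without FGF19WT libraries 2 and 3 was −0.15 (−2.24 to 1.93), and without library 1 it was 3.99 with an adjusted p of 0.00303 in edgeR. FGF19ΔKLB against vehicle gave 0.06 (−2.09 to 2.21, adjusted p = 0.995). FGF19ΔKLB minus FGF19WT gave −3.4 (−5.73 to −1.06, adjusted p = 0.266) with all libraries and 0.21 (−1.89 to 2.31) without FGF19WT libraries 2 and 3, while leaving out library 1 gave −3.93 with an adjusted p of 0.00398 in edgeR. An antisense gene, Gm47040, shares 115 exonic bases with Fst and was at most 3.11 CPM, and whether the counting used strand is not stated. Of the members, Igfbp1 and Fst alone were above the other 7 libraries in both FGF19WT libraries 2 and 3 (2 of 9, beside 18.4% of all genes), and 0 of 9 were below (beside 19%).

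Among the other genes of activin signalling, Inhba, which encodes the βA subunit of activin A, the best-known target of follistatin, stood at 3.72, 10.3 and 6.65 CPM in vehicle, at 4.92, 8.39 and 5.66 CPM with FGF19WT and at 24.1, 36.8 and 29.4 CPM with FGF19ΔKLB. All 3 FGF19ΔKLB libraries were above the other 6 libraries. The log2 fold change of FGF19ΔKLB was 2.13 against vehicle (adjusted p = 0.153 in edgeR) and 2.25 against FGF19WT (adjusted p = 0.237). For the difference from vehicle the 6-library fit gave an adjusted p of 0.0515 and DESeq2 one of 4.6e-05. The difference from FGF19WT library 1 alone was 2.61 (adjusted p = 0.524). Tgfbr3, a co-receptor that binds inhibins, had the smallest p for FGF19WT against vehicle in this list (log2 0.79, adjusted p = 0.249 in edgeR), and Inhbc the next (0.4, adjusted p = 0.444). The activin receptor genes Acvr1, Acvr1b, Acvr2a and Acvr2b had log2 fold changes against vehicle between −0.34 and 0.19 in both FGF19 groups. Acvr1c, which encodes ALK7, the receptor of activin E, did not pass the filter, with at most 0.12 CPM. Of 12 listed genes 10 were tested and 0 called in edgeR, with a median of 0.0 for FGF19WT and −0.07 for FGF19ΔKLB against vehicle. In each group 1 was higher and 0 lower at an unadjusted p under 0.05, and DESeq2 called 0 with FGF19WT and 1 with FGF19ΔKLB.

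**Figure D4:**
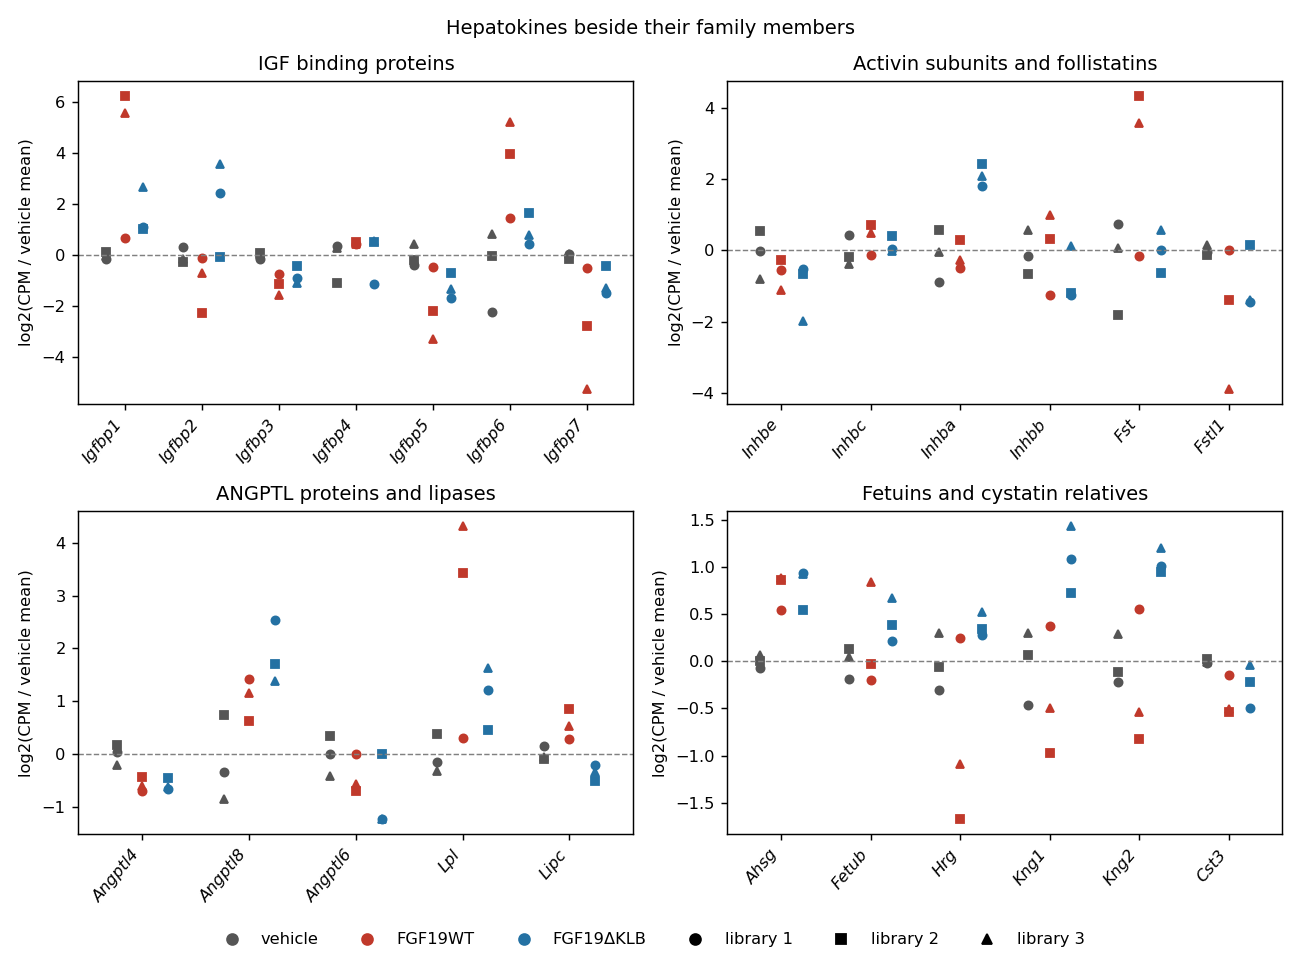
Log2 ratio of each library's CPM to the vehicle mean for the hepatokines and members of their families, coloured by group and with the library number as the symbol (libraries at 0 not drawn). Inhba is high in the 3 FGF19ΔKLB libraries (24.1 to 36.8 CPM), Igfbp3 and Angptl4 are below 0 in all 6 FGF19 libraries, and Ahsg is above 0 in all 6.

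Angptl4 encodes a secreted inhibitor of lipoprotein lipase that is made in liver and fat and rises with fasting. It lies on chromosome 17 from 33773750 to 33781830 on the minus strand. Its levels were 115, 126 and 96.7 CPM in vehicle, 68.8, 82.6 and 74.1 CPM with FGF19WT and 70.6, 81.8 and 72.4 CPM with FGF19ΔKLB. All 6 FGF19 libraries were below all vehicle libraries, and the FGF19 groups covered nearly the same range. FGF19WT libraries 2 and 3 did not stand apart for this gene. The level was 1.5-fold lower than vehicle with FGF19WT (log2 −0.58, SE 0.15, 95% interval −0.93 to −0.23, adjusted p = 0.13 in edgeR) and with FGF19ΔKLB (−0.59, SE 0.15, −0.94 to −0.24, adjusted p = 0.336). DESeq2 gave adjusted p of 0.00728 and 0.0137. The 6-library fit gave an adjusted p of 0.288 for FGF19WT and 0.0802 for FGF19ΔKLB. Without FGF19WT libraries 2 and 3 the FGF19WT difference was −0.71 (−1.17 to −0.25, adjusted p = 0.406 in edgeR), and without library 1 it was −0.53 with an adjusted p of 0.0343. Between the FGF19 forms the interval of the log2 difference was −0.35 to 0.35.

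Angptl4 is also made by fat cells, and markers of fat were set beside it. Of 7 fat markers 2 passed the filter, Plin4 and Fabp4. Adipoq, Lep and Plin1, which define fat cells, were at 2.04, 2.96 and 1.08 CPM in FGF19WT library 1 and at most 0.107 CPM in the other 8 libraries. The sum of the 7 was 115 to 204 CPM in vehicle, 7.1 to 85.7 CPM with FGF19WT and 13.7 to 39.8 CPM with FGF19ΔKLB, most of it from Plin4, a lipid droplet protein that fatty hepatocytes also make. Like Angptl4, that sum was lower in all 6 FGF19 libraries than in vehicle. Of B and plasma cell markers, the 8 listed summed to 103 to 246 CPM in vehicle, 4.03 to 30.3 CPM with FGF19WT and 31 to 70.1 CPM with FGF19ΔKLB. The 10 T and NK cell markers summed to 8.83 to 18.7 CPM in vehicle, 2 to 5.25 CPM with FGF19WT and 2.63 to 4.47 CPM with FGF19ΔKLB. The 10 stellate cell and matrix markers summed to 288 to 333 CPM in vehicle, 218 to 247 CPM with FGF19WT and 122 to 252 CPM with FGF19ΔKLB. The sums of these 4 lists were thus lower than vehicle in all 6 FGF19 libraries, where Angptl4 was low and Igfbp1 and Ahsg were high. Single genes did not all follow the sums. Of the 10 stellate cell and matrix genes, 3 had a positive and 7 a negative log2 fold change with FGF19WT, and 2 and 8 with FGF19ΔKLB. DESeq2 called 1 of them higher and 0 lower with FGF19WT. The part of these 4 lists in the differences of Angptl4, Igfbp1 and Ahsg was not tested.

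Genes that PPARα switches on in fasting, the program known for Angptl4 and Fgf21, were set beside them. Of 18 genes 0 were called in edgeR, while DESeq2 called 2 higher and 3 lower with FGF19WT and 0 with FGF19ΔKLB. For FGF19WT against vehicle 2 were higher and 5 lower at an unadjusted p under 0.05, with a median of −0.29, and for FGF19ΔKLB 0 were higher and 2 lower, with a median of −0.32. Acadm, a dehydrogenase of fatty acid oxidation, stood at 546, 503 and 356 CPM in vehicle, at 318, 194 and 148 CPM with FGF19WT and at 349.9, 299 and 309.8 CPM with FGF19ΔKLB. It was below vehicle in all 6 FGF19 libraries (log2 −1.09 with FGF19WT, adjusted p = 0.135 in edgeR). The gene with the next smallest p for FGF19WT was Cpt1a, which lets fatty acids into mitochondria (−0.79, adjusted p = 0.152). For FGF19ΔKLB the smallest were Slc25a20, the carnitine carrier (−0.49, adjusted p = 0.487), and Cyp4a14 (−1.03, adjusted p = 0.544).

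Angptl8 encodes a protein of the angiopoietin-like family that is made after feeding and steers where lipoprotein lipase acts. It lies on chromosome 9 from 21835510 to 21837347 on the plus strand, inside an intron of Dock6 on the other strand. Its levels were 32.2, 67.8 and 22.7 CPM in vehicle, 109, 63.1 and 90.8 CPM with FGF19WT and 239, 133 and 107 CPM with FGF19ΔKLB. The FGF19ΔKLB libraries were all above vehicle, and the FGF19WT group overlapped both other groups. Against vehicle the level was 3.9-fold higher with FGF19ΔKLB (log2 1.96, SE 0.46, 95% interval 0.91 to 3.02, adjusted p = 0.275 in edgeR). For that difference the 6-library fit gave an adjusted p of 0.124 and DESeq2 one of 0.0042. With FGF19WT it was 2.14-fold higher (log2 1.1, 0.07 to 2.13, adjusted p = 0.239), and 1.41 on the log2 scale without libraries 2 and 3 (−0.19 to 3.02, adjusted p = 0.779). FGF19ΔKLB minus FGF19WT was 0.86 (−0.16 to 1.89, adjusted p = 0.464).

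Dock6, the gene around Angptl8, stood at 15.8, 17.2 and 16.8 CPM in vehicle and at 33.8, 27.1 and 27.5 CPM with FGF19ΔKLB, so it was higher in the same libraries. Its log2 fold change there was 0.82, with an adjusted p of 0.03 in edgeR over 6 libraries, 0.206 over 9 and 0.00184 in DESeq2. The exons of Dock6 and Angptl8 share 0 bases. Since strand use is not stated, the part of unspliced Dock6 RNA in the Angptl8 counts was not tested.

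Genes that carbohydrate and insulin switch on for fat synthesis, the setting in which Angptl8 is known to rise, were set beside it. Of 15 genes 0 were called in edgeR in any comparison. DESeq2 called 2 lower with FGF19WT and 1 higher with FGF19ΔKLB against vehicle, and 7 higher between the forms. With FGF19ΔKLB 5 were higher and 0 lower than vehicle at an unadjusted p under 0.05, with a median log2 fold change of 0.39. With FGF19WT 0 were higher and 3 lower than vehicle, with a median of −0.75, while the Angptl8 mean was above vehicle in that group. FGF19ΔKLB minus FGF19WT gave 12 higher and 0 lower and a median of 1.56, beside 0.01 over all genes. Pnpla3, a lipid droplet hydrolase known as a target of SREBP1c, stood at 0.187, 1.98 and 0.435 CPM in vehicle and at 13.8, 8.94 and 5.91 CPM with FGF19ΔKLB (log2 3.46, adjusted p = 0.392 in edgeR). Elovl6, a fatty acid elongase, stood at 35.8, 61.9 and 57.1 CPM in vehicle and at 123, 97.8 and 145 CPM with FGF19ΔKLB (1.24, adjusted p = 0.403). With FGF19WT the smallest p against vehicle were those of Scd1, a fatty acid desaturase (−1.85, adjusted p = 0.128), and Tkfc, a kinase of fructose metabolism (−1.25, adjusted p = 0.189).

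Among the other genes around lipoprotein lipase, Lpl, the lipase itself, reached 176 and 326 CPM in FGF19WT libraries 2 and 3, with 12.9 to 49.9 CPM in the other 7 (log2 against vehicle 3.42, adjusted p = 0.127). Lipc, hepatic lipase, had the next smallest p (0.58, adjusted p = 0.166). Of 11 tested genes of this axis 0 were called in edgeR, with a median of −0.57 for FGF19WT and −0.06 for FGF19ΔKLB against vehicle. There were 2 higher and 0 lower at an unadjusted p under 0.05 with FGF19WT and 0 with FGF19ΔKLB, beside 18.8% and 8.35% of all genes. DESeq2 called 2 higher with FGF19WT and 0 with FGF19ΔKLB, beside 9.61% and 2.04% of all genes.

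Ahsg encodes fetuin-A, a plasma protein that keeps calcium phosphate in solution and inhibits the insulin receptor, and its gene lies on chromosome 16 from 22891277 to 22899449 on the plus strand, 18884 bases from Fetub. Its levels were 3411, 3578 and 3743 CPM in vehicle, 5220.1, 6479 and 6611 CPM with FGF19WT and 6860, 5199 and 6803 CPM with FGF19ΔKLB. All 6 FGF19 libraries were above all vehicle libraries and the FGF19 groups overlapped. The level was 1.71-fold that of vehicle with FGF19WT (log2 0.77, SE 0.23, 95% interval 0.26 to 1.28, adjusted p = 0.142 in edgeR) and 1.76-fold with FGF19ΔKLB (0.81, SE 0.23, 0.3 to 1.33, adjusted p = 0.364). DESeq2 gave adjusted p of 0.000716 and 0.00104. The 6-library fit gave 0.295 for FGF19WT and 0.0566 for FGF19ΔKLB. Without FGF19WT libraries 2 and 3 the FGF19WT difference was 0.55 (0.04 to 1.05, adjusted p = 0.677 in edgeR), and without library 1 it was 0.86 with an adjusted p of 0.00807. FGF19ΔKLB minus FGF19WT was 0.04 (−0.47 to 0.55).

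Albumin, another major product of hepatocytes, did not follow Ahsg in every library. Alb stood at 109776, 135960 and 79547 CPM in vehicle, at 169622, 78702 and 81865 CPM with FGF19WT and at 211853, 168099 and 248925 CPM with FGF19ΔKLB. It was above vehicle in FGF19WT library 1 and in all FGF19ΔKLB libraries. In FGF19WT libraries 2 and 3, where Ahsg was above vehicle, it was close to the lowest vehicle library. The 9 hepatocyte markers tested, albumin among them, summed to 125999 to 181317 CPM in vehicle and 233686 to 315149 CPM with FGF19ΔKLB. With FGF19WT the sum was 221927 CPM in library 1 and 107048 and 120551 CPM in libraries 2 and 3. Of the 9, 3 had a positive and 6 a negative log2 fold change with FGF19WT (median −0.27). With FGF19ΔKLB 7 were positive and 2 negative (median 0.51). The part of albumin's share of the counts, or of these markers, in the differences of Ahsg and Fetub was not tested. An antisense gene, Gm30505, shares 62 exonic bases with Ahsg and was at most 7.43 CPM.

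Fetub encodes fetuin-B, an inhibitor of metalloproteases best known for its role in the egg coat, and its gene lies on chromosome 16 from 22918334 to 22939778 on the plus strand. Its levels were 451, 560 and 529 CPM in vehicle, 446, 504 and 917 CPM with FGF19WT and 595, 669.7 and 816 CPM with FGF19ΔKLB. In CPM the FGF19ΔKLB libraries were all above vehicle, by a narrow margin at the lowest, and the FGF19WT libraries spread over both groups. In FPKM FGF19ΔKLB and vehicle overlapped, with FGF19ΔKLB library 1 at 261 and vehicle library 3 at 267 FPKM. The log2 fold change against vehicle was 0.43 with FGF19ΔKLB (95% interval −0.24 to 1.1, adjusted p = 0.772 in edgeR). The 6-library fit gave 0.43 (0.06 to 0.81, adjusted p = 0.235). With FGF19WT it was 0.28 (−0.39 to 0.95, adjusted p = 0.621), and −0.2 (−0.73 to 0.33) without libraries 2 and 3.

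Past Fetub on chromosome 16 lie Hrg and the kininogen genes Kng2 and Kng1, which encode plasma proteins of the same cystatin superfamily as the fetuins. Kng2 stood at 266, 286 and 379.9 CPM in vehicle, at 457, 176 and 214 CPM with FGF19WT and at 626, 599 and 713 CPM with FGF19ΔKLB. It was above vehicle in all FGF19ΔKLB libraries and lowest in FGF19WT libraries 2 and 3, where Ahsg was high. In the fit over the 6 libraries of FGF19ΔKLB and vehicle Kng2 stood 1.05 higher on the log2 scale (adjusted p = 0.0326 in edgeR), while the adjusted p was 0.478 over 9 libraries and 0.137 in DESeq2. Kng1 had a log2 fold change of 1.11 (adjusted p = 0.495 in edgeR over 9 libraries). Of the 4 relatives 0 were called in the fit over 9 libraries, with a median of −0.32 for FGF19WT and 0.72 for FGF19ΔKLB against vehicle. The unadjusted p was under 0.05 in 0 with FGF19WT and in 2, both higher, with FGF19ΔKLB, and DESeq2 called 0 in both.

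The genes were also compared with each other across libraries, as Pearson correlations of log2 CPM that share library, group and depth and carry no test. Igfbp1 and Fst had r = 0.91 over 9 libraries and 0.27 over the 7 libraries without FGF19WT 2 and 3. Ahsg and Angptl4 had r = −0.88 over 9 and −0.9 over 7 libraries. Next in size over 9 libraries came Angptl8 and Ahsg (0.73), Igfbp1 and Ahsg (0.71), Angptl4 and Inhbe (0.69), Angptl4 and Angptl8 (−0.67), Fgf21 and Inhbe (0.66) and Inhbe and Fetub (−0.66). Over the 7 libraries Igfbp1 had r = 0.86 with Ahsg, 0.84 with Fetub and −0.82 with Inhbe, and Angptl8 had 0.84 with Ahsg. Over 9 libraries Igfbp1 had 0.47 with Fetub and −0.32 with Inhbe. Of the 3 genes with the ATF4 and C/EBP element, Fgf21 and Inhbe had r = 0.66 over 9 and 0.79 over 7 libraries. Angptl8 had r = 0.13 with Fgf21 and −0.22 with Inhbe over 9 libraries. The part of the element in these values was not tested. Gdf15 had no r above 0.33 or below −0.13 with any other member over 9 libraries. Ahsg and Fetub, neighbours on chromosome 16, had r = 0.56 over 9 libraries.

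Over 9 libraries and 13076 genes of at least 1 CPM, the transcripts whose course was most like that of Igfbp1 were Lin37 (r = 0.99), Acsl4 and Coq2 (both 0.989). For Fst they were Pdcl, Traf2 (both 0.983) and Nemf (0.98), and for Ahsg Ces2g (0.983), Nid1 (0.981) and Gm3362 (0.978). Angptl4 was nearest to Pex11a (0.969), Coq3 (0.965) and Spg7 (0.951), and Angptl8 to Abcd2 (0.961), Tti2 (0.947) and Gm35696 (0.943). Fgf21 was nearest to Gm30238 (0.935), Brwd1 (0.902) and Tiprl (0.898), and Inhbe to 5031439G07Rik (0.933), Rab43 (0.925) and G0s2 (0.915). Gdf15 was nearest to Dlg5 (0.946), Smarce1-ps1 (0.931) and Tfpt (0.904), and Fetub to Rpn2 (0.961), Abhd11 (0.948) and Top3b (0.942). Over the 7 libraries without FGF19WT 2 and 3, Coq2 stayed among the 3 nearest of Igfbp1 (0.989), Nid1 among those of Ahsg (0.994) and Gm30238 among those of Fgf21 (0.951).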

How the data were processed

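Liver RNA of db/db mice was sequenced in 9 libraries, 3 per group. For each library the authors deposited expected counts and FPKM values of 28517 genes in 1 table. The submitters' processing notes list StringTie 1.3.0, HISAT2 2.0 and Bowtie 0.12.2, with no roles, and the build mm8. Since all 28517 gene starts are those of GENCODE M21 (GRCm38), positions are given on that build. Strand use in counting is not given in the sources used here.

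The members and gene lists were chosen with earlier results of these data known. The expected counts, whole numbers as deposited by the authors, were tested in edgeR 4.0.16 (R 4.3.3, TMM, robust quasi-likelihood, group as the only term, 18142 genes past its low-count filter), with Benjamini-Hochberg adjustment over all genes and a threshold of 0.05. Alternatives were no filter, 5 CPM in 3 libraries, DESeq2 1.42.0 (size factors and Wald test), totals without TMM, limma 3.58.1 on log2(FPKM + 1) and log2(FPKM + 0.1) from the deposited FPKM, 6-library fits, a replicate block, counts divided by 4, FGF19WT libraries 2 and 3 left out, and each library left out. In simulated data for FGF19WT against vehicle with 18142 genes, edgeR recovered 4.5% of genes shifted 2-fold, 49.3% of those shifted 4-fold and 81.8% of those shifted 8-fold.

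All members are named. The pathway lists held no gene called in edgeR over 9 libraries. Of each list up to 2 genes of smallest p in a comparison were named, with receptors, paralogs and neighbours of a member. The 3 most alike genes of each member were named too. Cell type lists are given as sums, with defining markers. Every list count against vehicle is to be read beside the share of all genes. At an unadjusted p under 0.05 in edgeR that share was 18.8% with FGF19WT and 8.35% with FGF19ΔKLB. In DESeq2 at its adjusted p it was 9.61% and 2.04%. One gene of the lipoprotein lipase list is not reported here, and that list was counted without it.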

Additional observations from a re-analysis of the deposited data

How the results depend on the processing

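Of the 297 member values refitted with another tool, filter, scale or library set, 270 kept their direction and side of the threshold, 9 passed it and 18 changed sign. All 9 that passed came from DESeq2, which called 4 members with FGF19WT and 3 with FGF19ΔKLB, each against vehicle, and 2 between the forms. Of 243 values with 1 library left out, 221 kept both, 6 passed the threshold, all without FGF19WT library 1, and 16 changed sign. Values of 0 at 2 decimals were given no sign in these counts. This touches Angptl4 between the forms, at 0 with all libraries, which was 0.12 without FGF19WT libraries 2 and 3 and −0.07 to 0.07 with 1 library left out. Among the values that changed sign was Fgf21 with FGF19ΔKLB against vehicle, at −0.76 with all libraries and 0.49 without vehicle library 2. The cause of the changes of sign was not tested.

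For FGF19WT against vehicle, leaving out FGF19WT libraries 2 and 3 gave −0.2 for Fetub and −0.15 for Fst. Fgf21 was 0.09 with limma at either pseudocount and 0.41 with the replicate block. With 1 library left out, values ran from −0.11 to 0.46 for Fetub, −0.63 to 1.11 for Fgf21 and −0.05 to 0.33 for Gdf15. For FGF19ΔKLB against vehicle, library totals without TMM gave −0.15 for Fst and −0.15 for Gdf15, limma with a pseudocount of 1 gave −0.02 for Fst and −0.12 for Gdf15, limma with 0.1 gave −0.15 for Gdf15, and the replicate block gave −0.01 for Gdf15. With 1 library left out, Fgf21 ran from −1.25 to 0.49, Fst from −0.38 to 0.63 and Gdf15 from −0.17 to 0.27. For FGF19ΔKLB minus FGF19WT, Ahsg was −0.19 without TMM and −0.15 with limma at either pseudocount, and Fetub −0.07 without TMM. Without FGF19WT libraries 2 and 3, Fgf21 was 1.59, Fst 0.21 and Igfbp1 1.16. With 1 library left out, Ahsg ran from −0.05 to 0.17, Fetub from −0.03 to 0.55, Gdf15 from −0.29 to 0.13 and Inhbe from −0.57 to 0.02. Library totals without TMM shift the median of all genes by −0.17 for FGF19ΔKLB against vehicle and by −0.21 between the forms.

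The number of genes called for FGF19WT against vehicle was 20, and 9 without TMM, 1743 with DESeq2, 69 and 45 with limma at pseudocounts of 1 and 0.1, 1 over 6 libraries, 1 with the replicate block and 0 to 5221 with 1 library left out, the highest without FGF19WT library 1. For FGF19ΔKLB against vehicle it was 2, and 11 without a filter, 13 at 5 CPM, 10 without TMM, 370 with DESeq2, 51 and 26 with limma, 292 over 6 libraries, 0 with the replicate block, 4 with counts divided by 4, 303 without FGF19WT libraries 2 and 3, and 0 to 172 with 1 library left out. Between the forms it was 0, and 834 with DESeq2, 1 with limma at 0.1, 1 over 6 libraries, 7 without FGF19WT libraries 2 and 3, and 0 to 3846 with 1 library left out. Members called with 1 library left out ran from 0 to 4 for FGF19WT against vehicle and from 0 to 2 between the forms, and were 0 throughout for FGF19ΔKLB against vehicle.

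Same-numbered libraries did not deviate together, with correlations of −0.05 to 0.15, so the numbers were not taken as pairs. With the replicate block 0 members were called in each comparison. The low recovery of 2-fold changes in simulated data holds for the edgeR test of FGF19WT against vehicle over 9 libraries, with a biological coefficient of variation of 0.471. That coefficient was 0.326 in the 6-library fit of FGF19ΔKLB against vehicle.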

Other observations

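Of 11 further hepatokine genes listed for comparison, 0 were called in edgeR over 9 libraries in any comparison. Against vehicle, 3 were higher and 0 lower with FGF19WT at an unadjusted p under 0.05, and 1 higher and 1 lower with FGF19ΔKLB. DESeq2 called 1 higher with FGF19WT and 0 with FGF19ΔKLB. Lect2, which encodes a chemotactic protein of hepatocytes, reached 1495 and 998 CPM in FGF19WT libraries 2 and 3, with 57.3 to 122 CPM in the other 7. Like Igfbp1 and Fst it was above the other 7 libraries in both, with a log2 fold change against vehicle of 3.13 (adjusted p = 0.128 in edgeR) and of −0.04 when those libraries were left out. Manf, which encodes a secreted factor of the endoplasmic reticulum, stood at 32.1, 28.1 and 40.6 CPM in vehicle and at 45.2, 61.9 and 81.2 CPM with FGF19ΔKLB, above vehicle in all 3 libraries (log2 0.9, adjusted p = 0.578). Manf was also among the 3 genes higher with FGF19WT at an unadjusted p under 0.05 in edgeR. Tsku, which encodes tsukushi, a secreted leucine-rich protein, stood at 71.4, 101 and 57.4 CPM in vehicle, at 13.9, 197 and 274 CPM with FGF19WT and at 10.4, 29.2 and 14.3 CPM with FGF19ΔKLB. FGF19WT library 1 lay with the FGF19ΔKLB libraries for Tsku, below vehicle, and FGF19WT libraries 2 and 3 lay above vehicle.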
